A study of Homo sapiens with 20 samples.

Results

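The 10 genes JUN, JUNB, JUND, FOS, FOSB, FOSL1, FOSL2, BATF, BATF3 and ATF3 encode subunits of AP-1, and the data described here are the RUNX1 binding sites around them. A site was included when its peak lay within 50 kb of the span of one of these genes in the RefSeq annotation of GRCh38, which gave 50 of the 26642 peaks. All but JUN had at least 1 peak, and 2 of the 50 peaks lay within reach of both ATF3 and BATF3. RUNX1 was immunoprecipitated with its bound DNA and the DNA sequenced (ChIP-seq). RUNX1 is a transcription factor of blood cells, and THP-1, the cells used, is an established human monocytic leukemia cell line. One THP-1 line carried a doxycycline-inducible shRNA against PU.1, the master transcription factor of myeloid cells (knockdown), and the other an inducible scramble shRNA (control). Both lines received doxycycline, and cells were harvested after 72 h. Each group had 6 RUNX1 libraries, made in 2 rounds that the labels call batches, with 3 controls against 2 knockdowns in batch 1 and 3 against 4 in batch 2. Only 1 hairpin line and 1 scramble line were compared, so an effect of PU.1 loss and a difference between the lines cannot be told apart. Neither PU.1 nor any transcript was measured in the values used here, and the 8 IgG samples were not analysed here.

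AP-1 is a dimer of basic leucine zipper (bZIP) proteins. A Jun protein (JUN, JUNB or JUND) pairs with another Jun protein or with a Fos protein (FOS, FOSB, FOSL1 or FOSL2), while BATF, BATF3 and ATF3 are smaller bZIP proteins that join Jun partners. Several of these genes, FOS and JUNB among them, are immediate-early genes that switch on within minutes of a growth factor or inflammatory signal, and in monocytes and macrophages AP-1 binds enhancers alongside PU.1 and RUNX1. RUNX1 peaks near these genes are binding sites close to them on the chromosome, and the data do not show which gene a site acts on.

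Of the 8 member genes with a listed start, peaks covered it at 4, JUND, FOS, FOSL2 and BATF. The RefSeq table used lists no start for FOSL1 or BATF3. These promoters are shown because the lost RUNX1 peak over the JUND start, and the peaks over the other starts that passed no call, lie over them. Each line runs from 250 bases before the start to 30 bases after it, lies wholly inside its peak, and comes from RefSeq (GRCh38.p14). Capitals mark matches to TGTGGT (the RUNX core), GAGGAAGT (a PU.1 site), TGACTCA (the AP-1 site) and TGACGTCA (the cAMP response element, which AP-1 dimers with ATF subunits also bind), searched on both strands.
JUND, chr19:18281593-18281872, minus strand: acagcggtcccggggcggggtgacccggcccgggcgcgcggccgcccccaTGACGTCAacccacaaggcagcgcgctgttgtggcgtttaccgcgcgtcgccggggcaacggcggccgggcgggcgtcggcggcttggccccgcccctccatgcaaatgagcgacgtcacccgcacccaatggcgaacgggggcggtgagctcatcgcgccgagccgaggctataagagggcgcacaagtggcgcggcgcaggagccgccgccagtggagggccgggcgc
FOS, chr14:75278578-75278857, plus strand: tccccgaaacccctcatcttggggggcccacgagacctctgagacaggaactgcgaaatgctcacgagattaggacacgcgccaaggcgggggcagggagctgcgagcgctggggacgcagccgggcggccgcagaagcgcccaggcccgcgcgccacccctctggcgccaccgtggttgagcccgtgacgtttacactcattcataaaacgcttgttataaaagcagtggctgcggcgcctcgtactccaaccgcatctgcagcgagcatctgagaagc
FOSL2, chr2:28392608-28392887, plus strand: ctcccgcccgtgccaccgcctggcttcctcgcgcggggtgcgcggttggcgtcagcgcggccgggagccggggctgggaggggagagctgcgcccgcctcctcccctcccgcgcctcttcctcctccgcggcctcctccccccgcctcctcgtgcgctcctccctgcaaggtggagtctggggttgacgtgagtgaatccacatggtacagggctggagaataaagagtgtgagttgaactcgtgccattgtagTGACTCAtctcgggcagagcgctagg
BATF, chr14:75522219-75522498, plus strand: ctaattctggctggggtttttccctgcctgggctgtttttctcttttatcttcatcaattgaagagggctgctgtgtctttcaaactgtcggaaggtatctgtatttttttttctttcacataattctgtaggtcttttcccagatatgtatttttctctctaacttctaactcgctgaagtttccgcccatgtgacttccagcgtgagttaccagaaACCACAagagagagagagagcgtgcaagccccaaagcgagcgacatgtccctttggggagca
The JUND promoter held 1 cAMP response element beginning at position -200 from the start, the FOSL2 promoter held 1 AP-1 site just after its start, and the BATF promoter held 1 RUNX core on the opposite strand (ACCACA) at position -32. None of the 4 motifs was found in the FOS window. Among 35116 promoters of this length, 12.3% held the RUNX core, 2.45% the PU.1 site, 4.73% the AP-1 site and 1.85% the cAMP response element. A match is a run of letters and not evidence of binding.

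Of the 50 peaks, 12 gained and 7 lost RUNX1 signal upon PU.1 knockdown, and 31 passed no call. A peak was called gained or lost when its DESeq2 adjusted p was under 0.05 over all 26642 peaks and its fold change was above 1.1, with batch in the model. The 19 calls made up 38.0% of the AP-1 peaks, against 42.0% called over all peaks. Gains made up 24.0% of the AP-1 peaks against 21.3% of all peaks, and losses 14.0% against 20.7%, so the number of changed sites around these genes was near the background of the whole peak set. The median log2 fold change (knockdown over control) was 0.01 over the 50 peaks and -0.02 over all peaks, and the median absolute log2 fold change was 0.28 against 0.39. The 4 genes JUND, FOS, FOSB and ATF3 had peaks called in both directions. FOSL2 and BATF3 had gains and no loss, FOSL1 had 1 loss and no gain, and JUNB and BATF had no call. Signal is given below as the normalised count, the reads in a peak divided by the library's size factor, as lowest, median and highest of 6 libraries and as mean ± SD. The libraries held 630247 to 1199004 reads within peaks in control and 938745 to 1719840 in knockdown, and this scaling would hide a gain or loss shared by all peaks.

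Few of the gained sites lay at gene starts. None of the 12 gained peaks held a start of a protein-coding gene in the RefSeq table used, against 3 of the 7 lost and 10 of the 31 uncalled peaks. That table lists no start for BATF3 or FOSL1, and 1 gained peak began 69 bp beyond the upper end of BATF3, so this count does not cover those genes. Over the whole peak set a listed start was held by 2.38% of gained and 15.8% of lost peaks. The libraries also differed at starts as a whole: the log2 excess of signal at peaks with a start over the other peaks was 0.01 to 0.48 in the 6 controls and -0.31 to 0.04 in the 6 knockdown libraries. The part of this difference in the split by starts was not tested. Beyond 10 kb from the member gene there were 30 peaks with 9 gains and 2 losses, and within 10 kb there were 20 peaks with 3 gains and 5 losses. Gained AP-1 peaks were narrower and weaker than lost ones, with a median width of 895 bp and a median normalised count of 29.2, against 1513 bp and 49.5 for lost peaks. The uncalled peaks had a median width of 1162 bp and a median normalised count of 43.0. Over all peaks, not split by call, the median width was 889 bp and the median normalised count 31.2. These are counts over the members, and no test of them was made. Distance, width and normalised count were not split by call over all peaks. Their differences between gained and lost peaks therefore cannot be called particular to these genes.

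**Figure D1:**
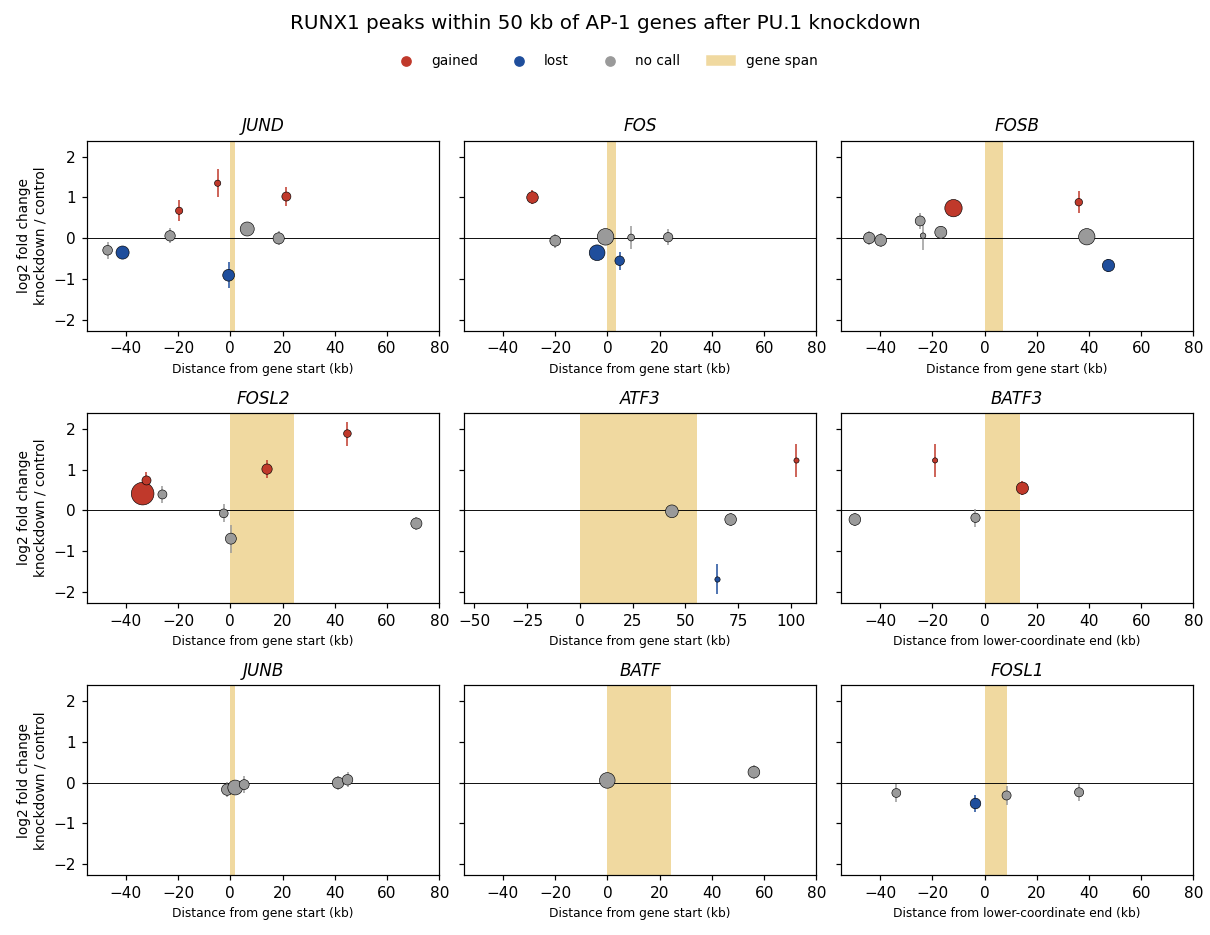
RUNX1 peaks around the 9 AP-1 genes that have peaks. The horizontal axis is the distance in kb from the gene start (from the lower-coordinate end for FOSL1 and BATF3) and the vertical axis the log2 fold change of knockdown over control with its SE as bars; point area follows the mean normalised count, and the 2 peaks near both ATF3 and BATF3 are drawn in both panels. No gained peak (12, red) covers a listed gene start, but 1 begins 69 bp beyond the upper end of BATF3, whose start is not listed; lost peaks (7, blue) are spread over 5 genes, and all points of JUNB and BATF are grey.

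The Jun genes stood apart from each other in how many RUNX1 sites they had. JUN (chr1:58780791-58784047), the founding member and the strongest activator of the family, had no peak within 50 kb. Its nearest peak was 118803 bp away (chr1:58902850-58904388), with a log2 fold change of -0.32 and an adjusted p of 0.155. The table lists only called peaks, so no signal at the JUN start itself can be given. JUNB (chr19:12791486-12793315), an immediate-early Jun protein known to act as a weaker activator, had 5 peaks and none was called. Its strongest peak overlapped the gene and also held the start of the neighbour HOOK2, with 83.6 ± 22.2 in control and 73.5 ± 20.9 in knockdown (SD, n = 6 each). The log2 fold change there was -0.12 ± 0.17 (SE, adjusted p = 0.591), and the other 4 JUNB peaks lay between -0.17 and 0.07.

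JUND (chr19:18279694-18281622), the Jun protein that is steadily present in many resting cells, had 9 peaks, of which 3 were gained and 2 lost. The gained peaks were 595 to 766 bp wide, with mean normalised counts of 13.9 to 29.2, against medians of 889 bp and 31.2 over all peaks. Downstream of the gene, within the span of IQCN, the peak at chr19:18259790-18260555 had 15.6, 18.3 and 23.4 in control (lowest, median, highest) and 27.4, 39.2 and 51.6 in knockdown. All knockdown libraries were above all controls, and the log2 fold change was 1.02 ± 0.23 (adjusted p = 4.36e-05). Upstream by 4564 bp, the peak at chr19:18286186-18286780 had 3.47, 7.56 and 12.6 in control and 13.2, 20.1 and 30.1 in knockdown. The groups did not overlap, and the log2 fold change was 1.35 ± 0.34 (adjusted p = 4.43e-04). Further upstream, the peak at chr19:18300918-18301524 had 10.2, 13.3 and 22.5 in control and 20.1, 21.7 and 28.4 in knockdown. Control replicate 4 reached into the knockdown range, and the log2 fold change was 0.67 ± 0.26 (adjusted p = 0.0278). That call was lost when any of 6 libraries was left out (controls 2, 5 and 6 and knockdowns 1, 2 and 4), with an adjusted p of up to 0.0865.

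The lost JUND peaks included the one over its own start. This peak, chr19:18281073-18283490, the one whose promoter is printed above with the cAMP response element, had 43.4, 52.7 and 143 in control and 17.7, 27.3 and 54.0 in knockdown. Its log2 fold change was -0.91 ± 0.32 (adjusted p = 0.0129). Control replicate 1, a batch 1 library, held the value of 143, and without it the log2 fold change was -0.62 ± 0.22 (adjusted p = 0.0120). The loss was seen in batch 2, where all 4 knockdown libraries (17.7 to 28.5) were below all 3 controls (43.4 to 59.0), with a log2 fold change of -1.18 and an adjusted p of 2.20e-04. In batch 1 the fitted value was -0.56 (adjusted p = 0.684), and without control replicate 1 it turned to 0.16 ± 0.35 (adjusted p = 0.872), since both knockdown libraries (51.1 and 54.0) then lay above the remaining controls (44.7 and 49.5). The other lost JUND peak, chr19:18321765-18323986, lay 40143 bp upstream and held the start of LSM4. It had 59.0, 68.0 and 84.5 in control and 45.7, 52.8 and 63.2 in knockdown, with overlapping groups. The log2 fold change was -0.36 ± 0.15 (adjusted p = 0.0407), and scaling to total counts removed the call, as did leaving out any of 7 libraries (controls 1, 2, 5 and 6 and knockdowns 1, 4 and 6, adjusted p of up to 0.166). The strongest JUND peak, which held the IQCN start, had 65.0 ± 8.05 in control and 75.2 ± 10.1 in knockdown and was not called (log2 fold change 0.22 ± 0.14, adjusted p = 0.207).

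Of the Fos genes, FOS (chr14:75278828-75282230), the classical immediate-early partner of Jun, had 7 peaks with 1 gain and 2 losses. The gain was a distal site 28429 bp upstream. This peak, chr14:75249356-75250399, had 25.99, 31.7 and 38.0 in control and 59.3, 62.8 and 69.4 in knockdown. The signal rose 2.001-fold, with a log2 fold change of 1.001 ± 0.17 (adjusted p = 4.63e-08), the groups did not overlap, and it was called in each batch alone (log2 fold change 1.102 and 0.93). Both losses flanked the gene. At 3507 bp upstream, chr14:75274441-75275321 had 84.5, 98.4 and 110 in control and 61.2, 83.0 and 87.9 in knockdown. The groups were apart within either batch, the log2 fold change was -0.36 ± 0.13 (adjusted p = 0.0128), and the call was lost without knockdown replicate 2 (adjusted p = 0.104). At 591 bp downstream, chr14:75282821-75284210 had 23.4, 37.1 and 62.2 in control and 14.3, 27.2 and 31.7 in knockdown. Here the groups overlapped, the log2 fold change was -0.56 ± 0.22 (adjusted p = 0.0309), and the call was lost without any of 6 libraries (controls 3 and 4 and knockdowns 1, 2, 3 and 5, adjusted p of up to 0.128). The peak over the FOS start, the widest of all 50 at 2471 bp, had 99.4 ± 35.6 in control and 95.9 ± 17.4 in knockdown (log2 fold change 0.03 ± 0.15, adjusted p = 0.893). Its highest control value was again that of replicate 1, 172, and the next highest control was 91.5.

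FOSB (chr19:45467996-45475179), an immediate-early Fos protein with a strong activation domain, had 9 peaks, none of which lay over the gene, with 2 gains and 1 loss. Its nearest peak was also its strongest and gained signal with very little spread. This peak, chr19:45455508-45456735, lay 11261 bp upstream and had 76.2, 80.9 and 85.8 in control and 125, 132 and 142 in knockdown. The log2 fold change was 0.74 ± 0.11 (adjusted p = 1.86e-09), close in the batches at 0.72 and 0.76. It had the smallest adjusted p of the 50 AP-1 peaks and was called in each batch alone. The other gain, chr19:45503803-45504368, lay 28624 bp downstream and had 3.46, 12.9 and 22.5 in control and 21.1, 24.4 and 35.6 in knockdown. The groups overlapped in batch 2, and the log2 fold change was 0.88 ± 0.27 (adjusted p = 0.00436). It was called in neither batch alone (1.45, adjusted p = 0.0922, in batch 1 and 0.55, adjusted p = 0.242, in batch 2). The lost peak, chr19:45514463-45516326, lay 39284 bp downstream within VASP, a gene for an actin regulator. It had 55.9, 66.9 and 76.0 in control and 29.8, 42.2 and 48.1 in knockdown without overlap, and a log2 fold change of -0.67 ± 0.16 (adjusted p = 1.06e-04). A peak at the VASP start between them, 95.3 in control and 94.6 in knockdown, had a log2 fold change of 0.03 (adjusted p = 0.858), so 3 neighbouring FOSB peaks were gained, uncalled and lost.

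FOSL2 (chr2:28392858-28417317), a Fos-related protein that lacks a strong activation domain, had the most gains, 4 of its 8 peaks, and no loss. No other protein-coding gene lay within 50 kb of it. The largest gain among all 50 peaks was downstream of it. This peak, chr2:28437286-28438067, lay 19969 bp past the gene and had 5.86, 8.92 and 11.6 in control and 25.1, 31.2 and 42.8 in knockdown. The signal rose 3.69-fold (log2 fold change 1.88 ± 0.30, adjusted p = 3.78e-09) and was called in each batch alone (1.95 and 1.84). Within the gene, 13433 bp from its start, chr2:28406291-28407515 had 13.03, 26.7 and 43.4 in control and 44.7, 47.9 and 60.3 in knockdown. The log2 fold change was 1.01 ± 0.22 (adjusted p = 1.74e-05). Its value was 1.61 in batch 1 and 0.59 in batch 2, a difference between batches that did not pass the interaction test over all peaks (DESeq2 adjusted p = 0.9999). Upstream, a pair of neighbouring peaks gained signal. The stronger, chr2:28358430-28360161, was the strongest of all 50 and had 141, 156 and 169 in control and 188, 210.2 and 219.9 in knockdown, without overlap. Its log2 fold change was 0.41 ± 0.09 (adjusted p = 4.23e-05). The weaker, chr2:28360260-28361267, lay directly beside it and had 19.6, 22.0 and 25.1 in control and 28.9, 37.5 and 44.6 in knockdown. The log2 fold change there was 0.73 ± 0.21 (adjusted p = 0.00222), again without overlap.

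Peaks with lower values in knockdown were also present at FOSL2, without a call. The peak over its start, chr2:28392177-28393936, whose promoter with an AP-1 site is printed above, had 27.0, 47.1 and 103 in control and 14.9, 27.9 and 61.9 in knockdown. The log2 fold change of -0.70 ± 0.34 missed the threshold with an adjusted p of 0.0881. Within batch 2 the peak was called lost (log2 fold change -1.03, adjusted p = 0.00607), and edgeR called it over both batches (adjusted p = 0.0129). The highest control, 103, was again replicate 1. Without that library the value was -0.52 ± 0.34 (adjusted p = 0.222) over both batches and 0.30 ± 0.38 (adjusted p = 0.742) in batch 1. At 46160 bp downstream, the peak at chr2:28463477-28464656, described after its values were seen, had 40.3, 48.1 and 57.2 in control and 33.8, 40.5 and 47.5 in knockdown. The knockdown libraries were below the controls within either batch, but the log2 fold change of -0.32 ± 0.16 was not called (adjusted p = 0.101). One other AP-1 peak lay just outside the threshold, a FOSB peak at 23983 bp upstream with a log2 fold change of 0.42 and an adjusted p of 0.0872.

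FOSL1 (chr11:65892049-65900545), the Fos-related protein known from invasive tumour cells, had 4 peaks, all with values below 0. One was called lost. This peak, chr11:65887842-65889354, held the start of FIBP at 2695 bp from FOSL1 and had 31.1, 44.9 and 70.6 in control and 26.1, 30.5 and 43.3 in knockdown. The groups overlapped, and the log2 fold change was -0.51 ± 0.20 (adjusted p = 0.0311). The whole neighbourhood was low, with a median log2 fold change of -0.34 over the 197 peaks of the surrounding 10 Mb, the lowest around any of the 10 genes. Centred on that median, the FIBP peak had a value of -0.18 and an adjusted p of 0.528. Its call was also lost without any of 7 libraries (controls 2, 5 and 6 and knockdowns 1, 3, 4 and 6, adjusted p of up to 0.239). The peak over the upper end of FOSL1 had 33.5 ± 13.9 in control and 25.2 ± 9.001 in knockdown (log2 fold change -0.32 ± 0.24, adjusted p = 0.302).

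BATF (chr14:75522469-75546992), a partner of Jun and IRF proteins in lymphocytes and dendritic cells, had 2 peaks and no call. The peak over its start, with the printed RUNX core, had 86.2 ± 15.8 in control and 87.2 ± 9.89 in knockdown (log2 fold change 0.05 ± 0.13, adjusted p = 0.771). Its other peak held the start of FLVCR2 and had a log2 fold change of 0.26 (adjusted p = 0.211).

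BATF3 (chr1:212686417-212699840), needed for a class of dendritic cells, had 4 peaks, counting both shared peaks, and 2 were gained. The peak beginning 69 bp beyond its upper end, chr1:212699909-212701936, had 28.6, 44.0 and 54.9 in control and 58.2, 62.6 and 69.8 in knockdown. All knockdown libraries were above all controls, and the log2 fold change was 0.54 ± 0.17 (adjusted p = 0.00452). This gain was called in neither batch alone (0.84, adjusted p = 0.0882, in batch 1 and 0.33, adjusted p = 0.277, in batch 2). Its call was lost in the test against a fold of 1.1 (adjusted p = 0.0531) and with the replicate block (adjusted p = 0.078). The surrounding region, shared with ATF3, had a median log2 fold change of 0.14, the highest around any member gene. Centred on that median, the peak kept its call with a value of 0.40 (adjusted p = 0.0424). The other gain, chr1:212667250-212667764, lay 18653 bp from BATF3 and also within reach of ATF3, and so counts for both genes. It had 2.30, 4.18 and 10.6 in control and 9.13, 13.8 and 19.8 in knockdown, with overlapping groups, and a log2 fold change of 1.23 ± 0.40 (adjusted p = 0.00788).

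ATF3 (chr1:212565407-212620777), a stress-induced bZIP protein that often represses, had 4 peaks including that shared gain and the other shared peak, which was not called. The site with the largest fall of all 50 lay 9275 bp downstream of it. This peak, chr1:212630052-212630584, had 9.10, 13.8 and 22.1 in control and 3.29, 4.93 and 6.52 in knockdown. All knockdown libraries were below all controls, and the signal fell 3.22-fold (log2 fold change -1.69 ± 0.38, adjusted p = 5.23e-05). The peak was weak, with a mean normalised count of 10.1, so the fold rests on few reads. It was called in batch 2 alone (adjusted p = 0.0242) but not in batch 1 (adjusted p = 0.0525). In contrast, the strongest peak, within the gene, had 59.2 ± 5.29 in control and 57.1 ± 5.90 in knockdown (log2 fold change -0.02 ± 0.15, adjusted p = 0.915).

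**Figure D2:**
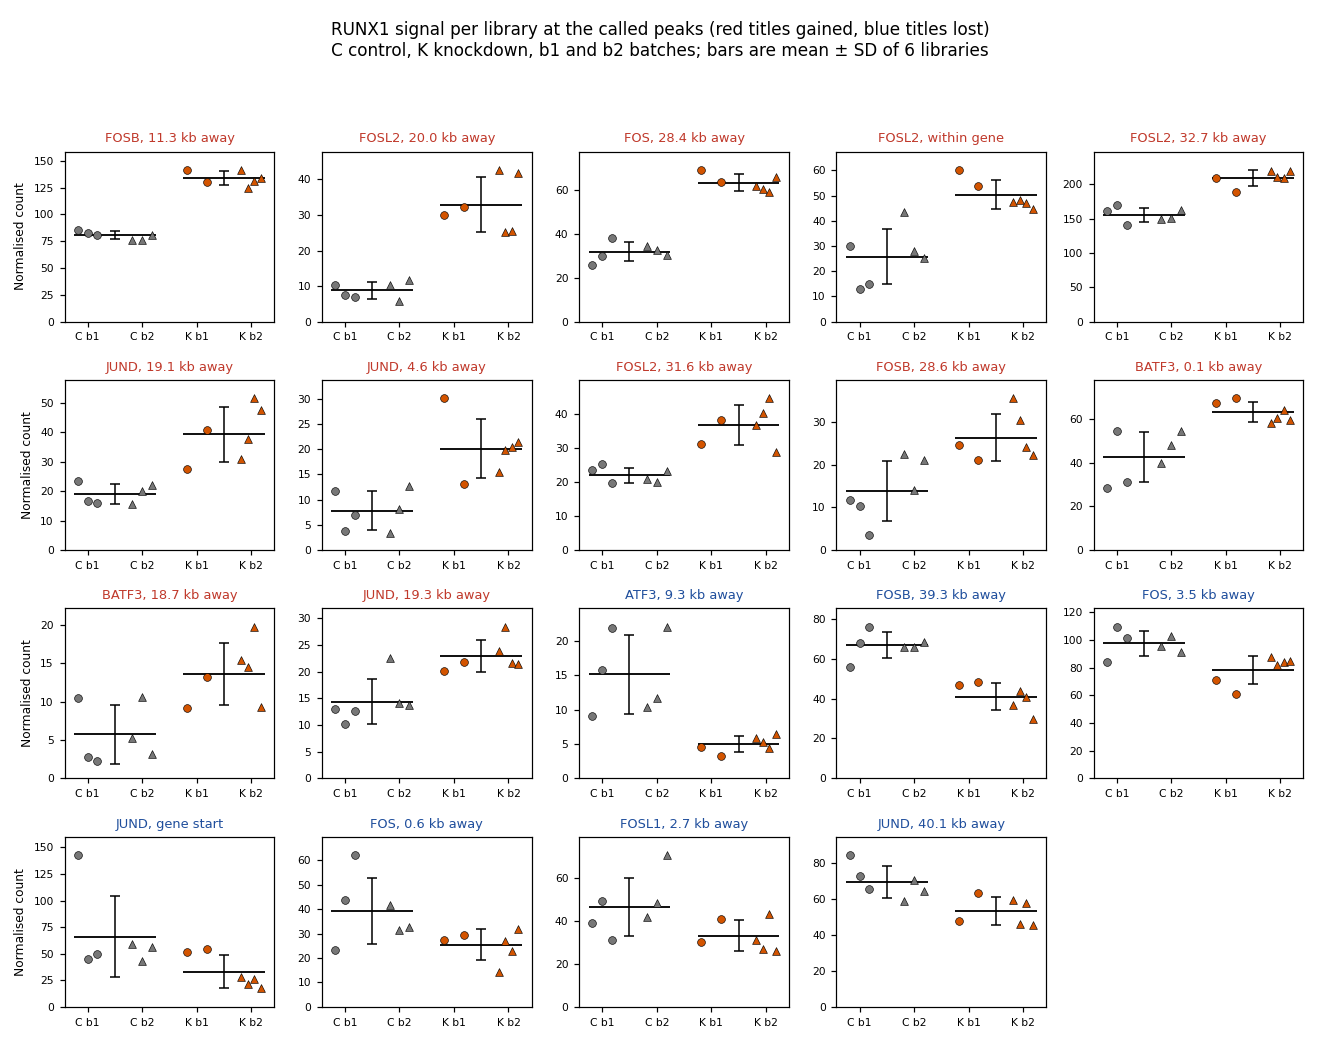
Normalised count (vertical axes, from 0) in every library at the 19 called AP-1 peaks, 12 gained (red titles) and 7 lost (blue titles). Circles are batch 1 and triangles batch 2, grey is control and orange knockdown, and lines with bars are the mean ± SD of 6 libraries; at the FOSB peak in the upper left the knockdown libraries (125 to 142) lie above the controls (76.2 to 85.8), while at the JUND start 1 control library lies at 143.

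The rounds were also fitted apart. All 19 called peaks had the same sign of log2 fold change in both, as did 99.9% of the 11185 called peaks of the whole set, which the choice of peaks by a fit over both batches largely fixes. In batch 1, 18 of 19 had the sign of the call when control replicate 1 was left out, the exception being the JUND start. Within batch 1 alone, 4 AP-1 peaks passed the call, against 12% of all peaks. Within batch 2 alone, 12 passed, against 25.8% of all peaks. Of the 19 calls, 4 passed in batch 1, 11 in batch 2 and 7 in neither batch alone. Those 7 were both BATF3 gains, both FOS losses, the downstream FOSB gain, the JUND gain 19296 bp upstream and the JUND loss 40143 bp upstream. The peaks called in both rounds were the FOSB peak 11261 bp upstream, the distal FOS peak and the downstream FOSL2 peak. Control and knockdown libraries did not overlap within either batch at 13 of the 50 peaks (26%, against 28.3% of all peaks), 9 higher and 4 lower in knockdown. No AP-1 peak had an adjusted DESeq2 interaction p under 0.05, with 1, the peak within FOSL2, at an unadjusted p under 0.05 (against 2.51% of all peaks), and edgeR gave 0 adjusted and 3 unadjusted. Without control replicate 1 the unadjusted count was 4, made up of the JUND start, the FOSL2 start, the peak within FOSL2 and a JUNB peak, and the adjusted count was 0. The share of all peaks is not given for that fit or for the edgeR interaction. The 2.51% is therefore no background for the counts of 4 and 3. edgeR over both batches called 21 AP-1 peaks, against 47.1% of all peaks, among them all 19 of the DESeq2 calls.

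**Figure D3:**
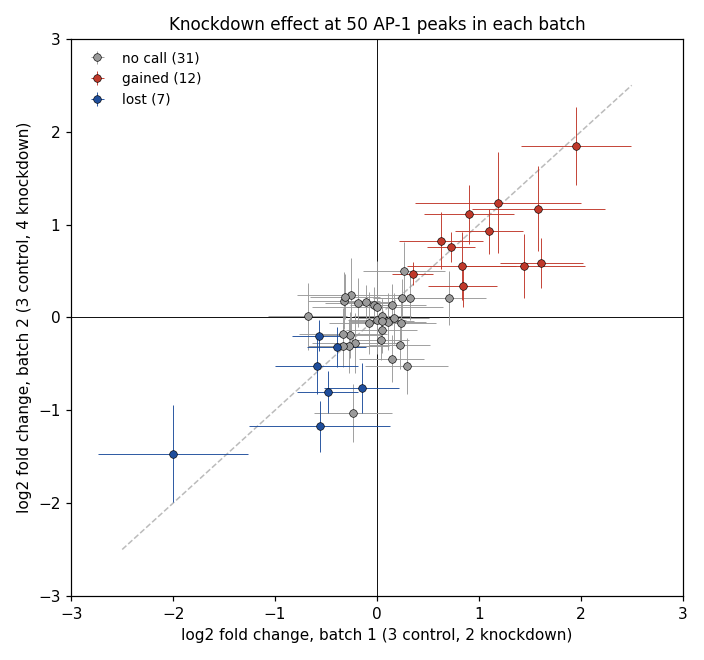
Log2 fold change of knockdown over control at the 50 AP-1 peaks in batch 1 (horizontal, 3 control and 2 knockdown libraries) and batch 2 (vertical, 3 control and 4 knockdown libraries), with SE bars and the line of equal values dashed. All 12 gained peaks (red) lie in the upper right and all 7 lost peaks (blue) in the lower left.

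The 4 start peaks had the same highest library, by a small margin at BATF, where knockdown replicate 1 had 103. Control replicate 1 had the highest value of the 12 libraries at the starts of JUND (143), FOS (172), FOSL2 (103) and BATF (105). It also had the highest log2 excess at starts over the whole peak set, 0.48, against 0.01 to 0.14 in the other controls. The 4 batch 2 knockdown libraries, which gave the low values at JUND and FOSL2, had the lowest excess, -0.31 to -0.10. The part of this excess in the results at the starts was not tested. The starts of FOS and BATF had no call in any of these settings.

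**Figure D4:**
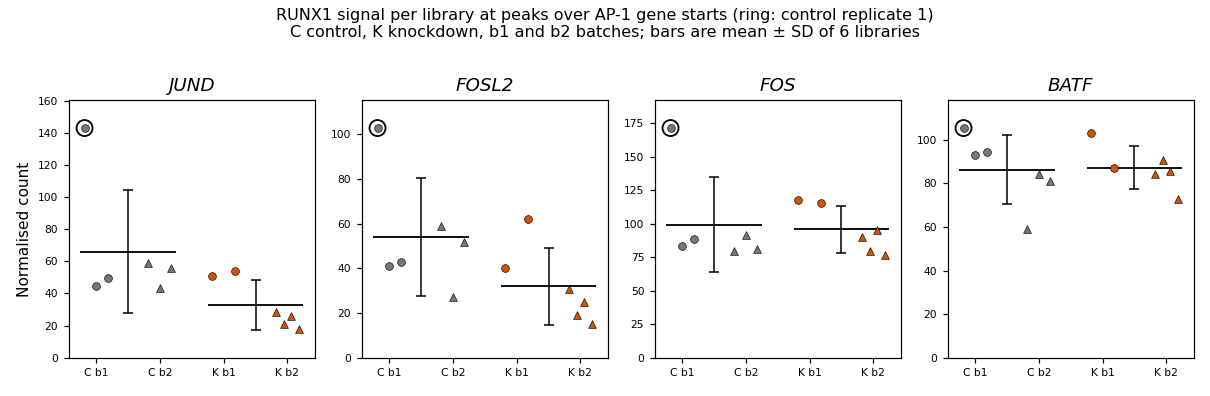
Normalised count (vertical axes, from 0) per library at the RUNX1 peaks over the starts of JUND, FOSL2, FOS and BATF. Circles are batch 1, triangles batch 2, lines with bars the mean ± SD of 6 libraries, and a ring marks control replicate 1, which is the highest library in all 4 panels; at JUND the 4 batch 2 knockdown libraries lie at 17.7 to 28.5.

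RUNX1 peaks around genes that work with AP-1 were called in both directions. Against 42.0% called over all peaks (21.3% gained and 20.7% lost), the share of called peaks was 40.85% of 71 peaks around bZIP relatives (15 gained, 14 lost), 33.3% of 66 around upstream kinases, phosphatases and serum response factors (9 gained, 13 lost), 36.9% of 65 around other immediate-early genes (11 gained, 13 lost) and 42.9% of 42 around known AP-1 target genes (5 gained, 13 lost). In that order the median log2 fold changes were 0.02, -0.08, -0.003 and -0.15, against -0.02 over all peaks. Among the bZIP relatives, a peak 16042 bp from ATF5 rose from 26.6 ± 7.90 to 84.1 ± 11.9 (log2 fold change 1.63 ± 0.18, adjusted p = 2.91e-17), a peak within MAF fell from 27.5 ± 5.46 to 5.63 ± 2.25 (log2 fold change -2.34 ± 0.32, adjusted p = 9.35e-12), and a peak 8543 bp from JDP2, a repressor that pairs with Jun proteins and lies near FOS and BATF, rose from 40.0 ± 7.68 to 86.5 ± 12.2 (log2 fold change 1.08 ± 0.16, adjusted p = 4.37e-10). The clearest kinase-pathway changes were losses. A peak 42797 bp from MAPK3, which encodes ERK1, had a log2 fold change of -1.42. One 35298 bp from DUSP10, a phosphatase gene, had -0.996, and one within MAPK14, which encodes p38 alpha, had -1.14. Of the immediate-early genes, peaks 38732 bp from ZFP36 and within SGK1 were lost (-1.35 and -1.34) and a peak 17446 bp from IER2 was gained (1.86). Of the AP-1 targets, a pair of peaks 3182 and 9683 bp from the protease gene MMP9 was lost (-1.46 and -2.01). A peak 42433 bp from PLAU, the urokinase gene, was also lost (-1.26).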

How the data were processed

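ChIP-seq counts for the 12 RUNX1 libraries were taken from the table the authors deposited, which gives unnormalised read counts for every peak in every library, and the width of each peak. By the methods given, the authors used bowtie2 for alignment, dropped duplicates, ran macs2 on each condition in each batch, retained peaks that both batches shared reproducibly, joined the sets of the 2 conditions and counted with featureCounts (tool versions not given in the sources used here). The peaks were called on the libraries compared here. The methods name GRCm38 for these human cells and the labels list GRCm38 and GRCh38; the coordinates fit genes of GRCh38, and the RefSeq table of GRCh38.p14 gave gene spans and promoters. That table of starts held 8 of the 10 genes (not FOSL1 or BATF3, whose strand was not used), and it is not complete, so peaks without a start are peaks without a listed one.

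DESeq2 1.42.0 in R 4.3.3 was fitted to all 26642 peaks with batch and genotype (Wald test, median-of-ratios size factors, Benjamini-Hochberg adjustment), and edgeR 4.0.16 (quasi-likelihood test) was an alternative; the code was tested on simulated data. The log2 excess at starts is the difference of mean log2(normalised count + 1) between peaks with and without a start, after centring each peak over libraries. Groups, batches and replicates follow the labels, which do not say whether libraries came from separate cultures, so p-values measure the spread between libraries. Within groups, no library pair was as close as sampling noise (chi-square per degree of freedom 1.29 to 2.24, where noise gives 1), so all were kept. Totals are reads within peaks, and their number limits what weak peaks can show.

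The genes, lists, tests and alternatives were chosen with earlier results of these data known. Named peaks are all called ones, plus the nearest and the strongest peak of each gene. Peaks named for the other lists are the 3 with the smallest adjusted p of each list. Batch 1 and the interaction without control replicate 1 were fitted after the data were seen.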

Additional observations from a re-analysis of the deposited data

Results flagged for a closer look

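At 4 of the named peaks 1 library lay far from the other 5 of its group by Dixon's gap test. At the FOS start, control replicate 1 had a normalised count of 171.5 and the other controls 79.8 to 91.5. At the JUND start, the same library had 142.9 and the others 43.4 to 59.0. At the upstream JUND peak (chr19:18300918-18301524), control replicate 4 had 22.55 and the others 10.2 to 14.1, and at the strongest FOSL2 peak (chr2:28358430-28360161), knockdown replicate 2 had 188.3 and the others 209.1 to 219.9. The search covered 52 groups of 6 libraries, in which chance flags about 1 in 20, or 2.6.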

How the results depend on the processing

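All 19 called peaks kept their direction under every alternative over both batches that tested them, and 14 kept their call whichever library was left out. Direction could not change with no independent filtering, a test against a fold of 1.1, an adjusted p under 0.01 or a fold over 2. These settings reuse the fitted values of the main model. Leaving out 1 library gave 15 to 19 calls, 11 to 13 gained and 4 to 7 lost, with 4 lost without knockdown replicate 1 and 18 calls without control replicate 1. edgeR, TMM size factors, no independent filtering, no batch term and a mean count of at least 10 lost no call among the peaks tested. The mean count filter did not test the gain shared by BATF3 and ATF3, whose mean was 9.65. Centring on the surrounding 10 Mb left 17 calls. Testing against a fold of 1.1 gave 12 calls with 2 lost, an adjusted p under 0.01 left 2 lost, and a fold over 2 left 7 calls, 6 gained and 1 lost. The share of all peaks called is not given for these settings, for centring or for leaving out 1 library. Those counts therefore show nothing particular to the AP-1 peaks. Within 10 kb of the genes (20 peaks) there were 8 calls, 3 gained and 5 lost, or 40.0% of these peaks. That window left 6 calls of 28 peaks for the immediate-early genes, 6 of 18 for the AP-1 targets, 20 of 39 for the bZIP relatives and 17 of 42 for the kinases (42.0% of all peaks were called).

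With the replicate number as a block, 10 peaks were called, 7 gained and 3 lost, and all 19 kept their direction (7289 calls over all peaks). The numbers do not pair the samples: number 3 lies in different batches in the 2 groups, and the correlation of same-numbered deviations ran from -0.06 to 0.17.

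In batch 1, edgeR called 10 peaks (27.3% of all peaks), and leaving out 1 library gave 0 to 3 DESeq2 calls: 0 without control 2, control 3, knockdown 1 or knockdown 2, with 7, 5, 4 and 5 peaks at an unadjusted p under 0.05 and 4.28%, 4.18%, 1.18% and 0.946% of all peaks called. Without a knockdown library the lone one is assumed to vary like the controls. Batch 2 gave 7 to 11 calls, 7 without control 6 (16.4% of all peaks). The interaction gave 0 adjusted calls without control replicate 1.

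Among the 26 named peaks, the only ones for which every alternative was compared here, the values that changed sign were those of uncalled peaks or of batch 1. They were the upper end of FOSL1 (0.02 centred), the FOS start (-0.047 with no batch term, -0.022 with the replicate block, -0.051 to 0.191 leaving out 1 library) and the BATF start (-0.016 to 0.119 leaving out 1 library, lowest without control 4). Without control 1, batch 1 gave 0.16 at the JUND start, 0.30 at the FOSL2 start, 0.012 at the BATF start and -0.077 within ATF3. The causes were not tested.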
